A study of Danio rerio with 10 samples.

Results

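The genes described are those of heart calcium handling and excitation: the calcium pump genes atp2a2a and atp2a2b, the calcium release channel genes ryr2a and ryr2b, the luminal calcium buffer gene casq2, the release channel partner gene fkbp1b, the calcium channel genes cacna1c and cacnb2a, the exchanger gene slc8a1a and the potassium channel gene kcnh6a. They were chosen by name, and a line of the deposited table belonged to the set where its gene symbol equalled one of the names. Of the 10 names, 9 had a line among the 32266 genes of the table, and ryr2a was not analysed here. All 9 passed the filter on low counts, which left 20802 genes.

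RNA was measured in zebrafish (Danio rerio) embryos at 33 hours post fertilization. One group was rbpms2a-/-; rbpms2b-/-, homozygous for mutations in both genes of the RNA-binding protein Rbpms2. The other was made of control siblings, labelled wt, whose single genotypes are not given, so carriers of the mutations may be among them. Mutants were picked by eye, 10 whole embryos were pooled for a library, and both groups had 5 libraries, numbered 1, 2, 3, 4 and 6. The study asked which genes differ in expression or in splicing. The deposited values are per gene, so splicing of these genes was not analysed here.

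In a heart muscle cell an action potential opens L-type calcium channels in the cell membrane, and the calcium that enters opens ryanodine receptors, which release more from the sarcoplasmic reticulum. Contraction ends when the pump of the sarcoplasmic reticulum takes calcium back up and the sodium-calcium exchanger carries the rest out of the cell, while potassium channels repolarise the membrane. In zebrafish, loss of cacna1c (island beat), slc8a1a (tremblor) or kcnh6a (breakdance) is known to disturb the embryonic heartbeat.

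Libraries held 21.5 to 36.0 M counts in total (M, 1000000 counts). Levels are counts in every 1000000 (CPM) after TMM scaling, as mean ± SD with n = 5 per group. The targeted gene rbpms2a lay between 4.25 and 7.05 CPM in controls and between 2.42 and 3.91 CPM in the mutants. The other targeted gene, rbpms2b, was at 14.2 ± 3.71 and 15.4 ± 4.63 CPM, and since a mutant transcript can persist, its level checks nothing about the labels. Heart muscle was represented: myl7, the heart's regulatory light chain gene, measured 25.9 ± 1.29 CPM in the controls and 27.3 ± 4.27 CPM in the mutants. Not all heart muscle genes were level: myh6, a myosin heavy chain gene of the atrium, fell from 15.5 ± 1.00 to 7.26 ± 1.25 CPM, with no overlap (log2 fold change -1.10, edgeR adjusted p 0.0112). In whole embryos, fewer cells of a type and less RNA per cell cannot be told apart.

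None of the 9 genes changed past the threshold. With edgeR's quasi-likelihood test and Benjamini-Hochberg adjustment over all tested genes at a threshold of 0.05, 0 of 9 were called and 0 had an unadjusted p under 0.05. Of all tested genes 0.00481% were called and 1.95% had such an unadjusted p. DESeq2, limma-voom and limma-trend also called 0 of 9. When the replicate number was used as a block, 0 of 9 were called against 0.255% of all genes, and 2 (ryr2b and cacna1c, both lower in mutants) had an unadjusted p under 0.05, against 10.5% of all genes and 4.84% counting only lower ones. The targeted gene rbpms2a, whose ranges were apart, was not called without the block either (log2 fold change -0.73, unadjusted edgeR p 0.00103). With the block rbpms2a was called (edgeR adjusted p 0.00741). The fitted log2 fold change, double mutant over control sibling, was below 0 for 7 of the 9 genes and above 0 for cacnb2a and fkbp1b, against 49.3% below 0 among all tested genes. The median was -0.06 over the 9 genes and 0.002 over all tested genes. In 4 or 5 of the numbers the mutant was lower than its control for 5 of the 9 genes, against 22.6% of all tested genes. The estimates lay between -0.35 (ryr2b) and 0.07 (fkbp1b). In each of the 9 genes the range of the mutants overlapped that of the controls, and over all tested genes the ranges were apart in 0.466%.

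**Figure D1:**
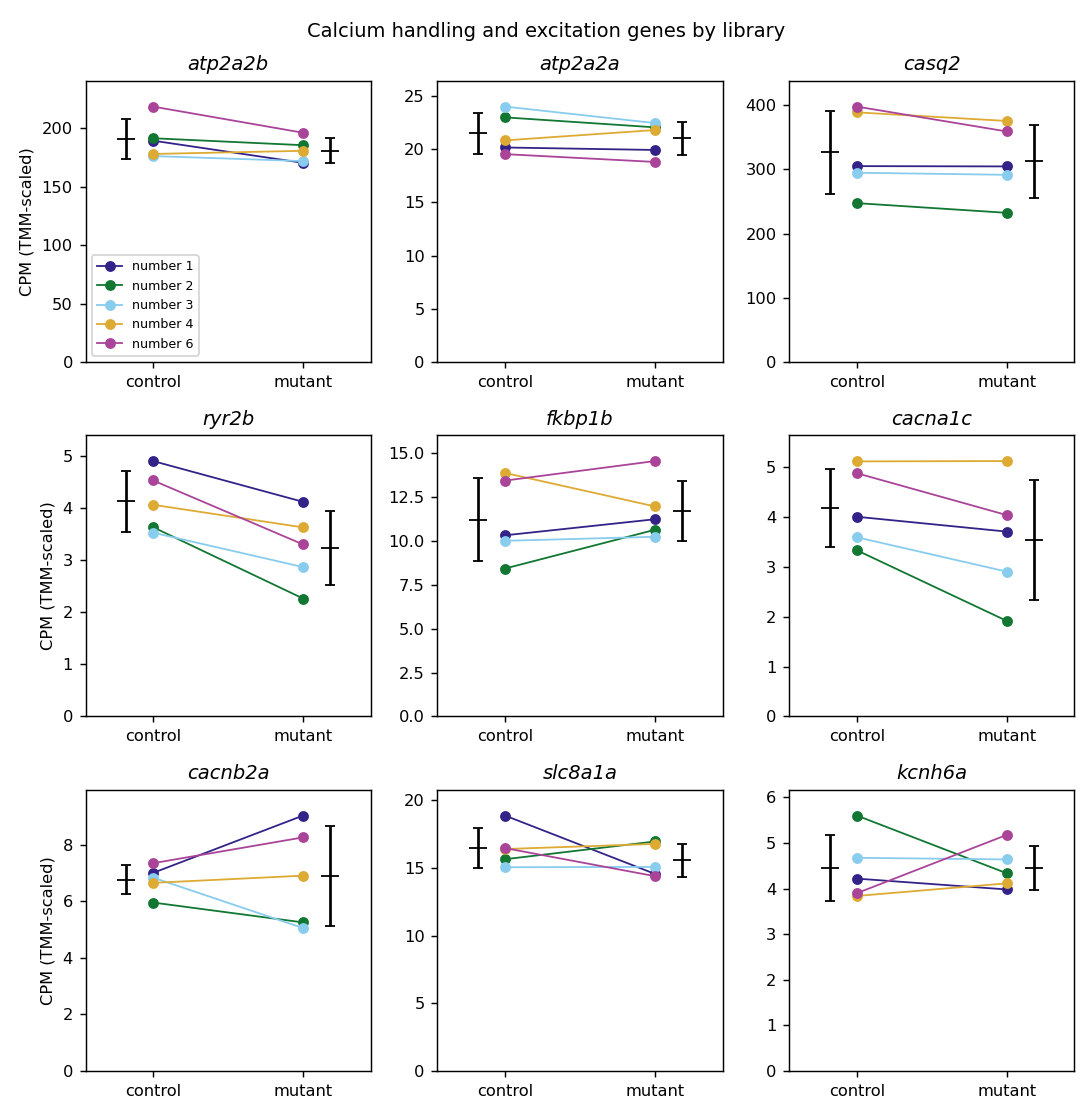
Level of each of the 9 genes in every library, in TMM-scaled CPM on axes that start at 0; lines join the control and the mutant library of the same replicate number, and black bars give mean ± SD (n = 5). Ryr2b runs downward in all 5 numbers and casq2 is nearly level within each number, while the groups overlap in every panel.

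Atp2a2b was the more abundant of the pump genes. Both code for SERCA2, the pump that returns calcium to the sarcoplasmic reticulum. In the order of the numbers 1, 2, 3, 4 and 6, atp2a2b was at 189, 191, 176, 178 and 218 CPM in controls and at 170.3, 185, 172, 181 and 196 CPM in the mutants. Control 6 was the highest library and mutant 1 the lowest, and the groups overlapped. The means were 191 ± 16.9 and 181 ± 10.5 CPM (± SD, n = 5 per group). The log2 fold change was -0.08 (SE 0.0699, 95% interval -0.23 to 0.08, unadjusted edgeR p 0.298, adjusted p 1.00).

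Atp2a2a lay between 19.5 and 24.0 CPM in controls and between 18.8 and 22.5 CPM in the mutants, with means of 21.5 ± 1.91 and 21.0 ± 1.57 CPM (± SD, n = 5 per group). Its log2 fold change was -0.03, with a 95% interval of -0.21 to 0.14. These intervals were the narrowest of the set together with that of slc8a1a, and for atp2a2b they bound the mutant level to between 0.854 and 1.05 times the control level. The balance between the pump genes was similar in the groups. Within a library the log2 ratio of atp2a2a to atp2a2b was -3.15 ± 0.226 in controls and -3.11 ± 0.166 in mutants (± SD, n = 5 per group), a difference of 0.04 with a two-sided exact permutation p of 0.746. The ratio was lowest in both libraries of number 6, at -3.48 in the control and -3.38 in the mutant. Estimated counts were whole in only 4 of 10 libraries for atp2a2b and in 8 for atp2a2a. Some reads of both genes were thus shared with another locus.

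A line read as a gene of the pump's inhibitor was lower in mutants, though edgeR called it only with the block. Phospholamban is a small membrane protein that binds SERCA2 and lowers its affinity for calcium. No line carried one of the phospholamban symbols searched, but the gene name table used here gives the ID ENSDARG00000069404 as pln1 and ENSDARG00000097256 as pln2. The deposited table lists the first as CR926459.1 with the biotype antisense. These lines were looked up after the other results had been seen, and a change of CR926459.1 was known from earlier work on these data. In the order of the numbers, pln1 was at 2.74, 2.00, 1.60, 4.46 and 3.90 CPM in controls and at 1.53, 0.829, 1.095, 1.37 and 0.730 CPM in the mutants. The lowest control, number 3, lay just above the highest mutant, number 1, so the groups did not overlap. The mutant mean, 1.11 ± 0.343 CPM, was 37.8% of the control mean, 2.94 ± 1.22 CPM (± SD, n = 5 per group).

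The log2 fold change of pln1 was -1.38 (SE 0.308, 95% interval -2.05 to -0.72), and without the block edgeR gave an unadjusted p of 0.000666 (adjusted p 1.00). Blocking by replicate number gave -1.34 (SE 0.212, edgeR adjusted p 0.0113), where 0.0769% of all tested genes were called as lower, and pln1 passed in all 6 alternatives to the blocked fit, with adjusted p-values of 0.000299 to 0.0489. Without the block it passed in 1 of 17 alternatives (DESeq2, adjusted p 0.0489). Over all 24 alternatives the log2 fold change of pln1 lay between -1.55 and -0.41, so its size depends on the processing. Within the numbers the log2 difference ranged from -2.42 in number 6 to -0.55 in number 3. Counts of pln1 were between 21 and 158 per library, so single libraries carry a large counting error. The library chemistry keeps the strand, but no source says whether counting used it, and reads of pln1 and of a gene on the opposite strand cannot be told apart. Pln2, the second phospholamban gene, was at 2.34 ± 0.391 and 2.30 ± 0.353 CPM (± SD, n = 5 per group), with a log2 fold change of -0.02 (95% interval -0.39 to 0.34).

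**Figure D2:**
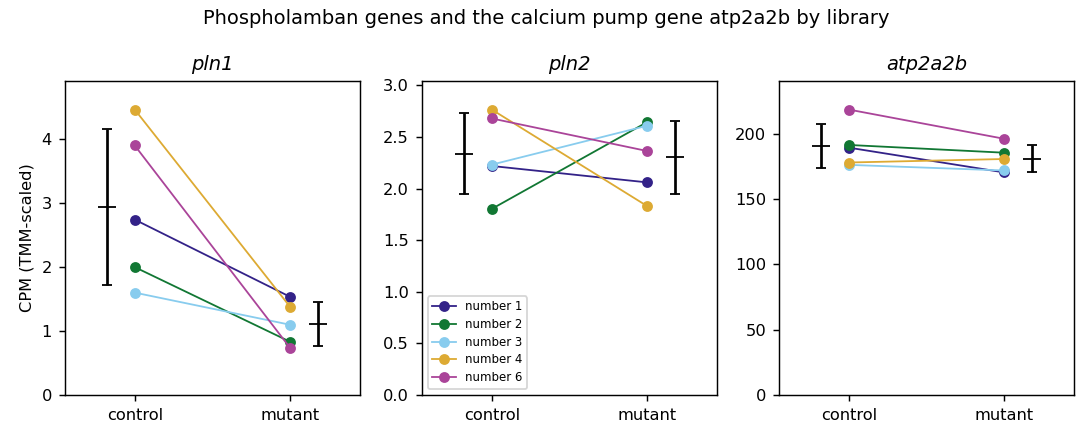
Level of pln1, pln2 and the pump gene atp2a2b in every library, in TMM-scaled CPM on axes that start at 0; lines join libraries of the same number and black bars give mean ± SD (n = 5). Pln1 is lower in the mutant of all 5 numbers, from a mean of 2.94 to 1.11 CPM, and the other panels show overlapping groups.

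Ryr2b showed the largest difference among the 9 genes. It codes for a ryanodine receptor, the channel through which calcium leaves the sarcoplasmic reticulum. In the order of the numbers it was at 4.90, 3.63, 3.53, 4.06 and 4.53 CPM in controls and at 4.12, 2.26, 2.87, 3.63 and 3.30 CPM in the mutants. The mutant library was the lower one in 5 of 5 numbers, which held for 5.01% of all tested genes, but mutant 1 lay above 3 of the controls. The mean was 4.13 ± 0.585 CPM in controls and 3.24 ± 0.711 CPM in the mutants (± SD, n = 5 per group), 78.3% of the control level. The two-sided exact permutation p, which takes no account of the numbers, was 0.0714.

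The log2 fold change of ryr2b was -0.35 (SE 0.169, 95% interval -0.72 to 0.02), unadjusted edgeR p 0.0614, adjusted p 1.00. With the block it was -0.36 (SE 0.114, 95% interval -0.60 to -0.12), unadjusted edgeR p 0.00608 and adjusted p 0.239, so the gene did not pass over all genes tested. Under the 6 alternatives that keep the block its edgeR or DESeq2 adjusted p lay between 0.112 and 0.594. The difference within a number ran from -0.68 in number 2 to -0.16 in number 4. Its counts were 71 to 179 per library, the deposited gene length being 19846 bases, and they were whole in all 10 libraries.

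Casq2 was the most abundant of the 9 genes and hardly differed between the groups. It codes for calsequestrin, which stores calcium inside the sarcoplasmic reticulum. Its levels were 305, 247, 295, 389 and 398 CPM in controls and 305, 232, 292, 376 and 359 CPM in the mutants, in the order of the numbers. Both libraries of numbers 4 and 6 were high and both of number 2 were low. The means were 327 ± 64.6 and 313 ± 57.1 CPM (± SD, n = 5 per group), a log2 fold change of -0.06 (95% interval -0.39 to 0.26, unadjusted edgeR p 0.676).

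The mutant of casq2 was lower in 5 of 5 numbers, by very little: the log2 differences ran from -0.15 to -0.002. With the block the 95% interval narrowed to -0.15 to 0.02 (unadjusted edgeR p 0.143, adjusted p 0.622). Estimated counts of casq2 were whole in only 1 of 10 libraries, so some of its reads were shared with another locus.

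Fkbp1b codes for a small protein that binds the ryanodine receptor and steadies its closed state. It lay between 8.43 and 13.9 CPM in controls and between 10.2 and 14.6 CPM in the mutants, with means of 11.2 ± 2.35 and 11.7 ± 1.71 CPM (± SD, n = 5 per group). The groups overlapped almost completely, and the log2 fold change was 0.07 (95% interval -0.25 to 0.39).

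Cacna1c, the pore-forming subunit of the L-type calcium channel, was at 4.00, 3.33, 3.59, 5.11 and 4.87 CPM in controls and at 3.70, 1.91, 2.90, 5.11 and 4.03 CPM in the mutants, in the order of the numbers. Mutant 2 was the lowest library, and in number 4 the control and the mutant were level. The means were 4.18 ± 0.782 and 3.53 ± 1.205 CPM (± SD, n = 5 per group), and the log2 fold change was -0.24 (SE 0.231, 95% interval -0.74 to 0.26, unadjusted edgeR p 0.323, adjusted p 1.00). With the block it was -0.27 (SE 0.122, unadjusted edgeR p 0.0421, adjusted p 0.452). Number 2 carried much of the difference, at -0.80: without that pair the blocked estimate was -0.17 with an unadjusted edgeR p of 0.176, and without mutant 2 alone the unblocked one was -0.09.

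Cacnb2a codes for an auxiliary beta subunit that helps bring the channel to the membrane. The controls were at 6.77 ± 0.518 CPM, between 5.96 and 7.36 CPM, and the mutants at 6.91 ± 1.77 CPM, between 5.06 and 9.04 CPM (± SD, n = 5 per group). The mutants spread on both sides of the controls, with numbers 1, 4 and 6 higher and numbers 2 and 3 lower than their controls. The log2 fold change was 0.03 (95% interval -0.32 to 0.38), and its sign turned in several of the alternatives.

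Slc8a1a, the sodium-calcium exchanger, lay between 15.0 and 18.9 CPM in controls and between 14.4 and 17.0 CPM in the mutants. The means were 16.5 ± 1.46 and 15.5 ± 1.23 CPM (± SD, n = 5 per group), with a log2 fold change of -0.08 (95% interval -0.27 to 0.10). Its largest difference within a number was -0.37, in number 1, where the control was the highest of all libraries.

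Kcnh6a, a channel of the ERG family that repolarises the membrane, had the smallest difference of the set. It was at 4.45 ± 0.727 and 4.45 ± 0.478 CPM (± SD, n = 5 per group), with ranges of 3.84 to 5.60 and 3.98 to 5.18 CPM. The log2 fold change was -0.003 (95% interval -0.30 to 0.29), and within the numbers it went from -0.37 in number 2 to 0.41 in number 6.

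**Figure D3:**
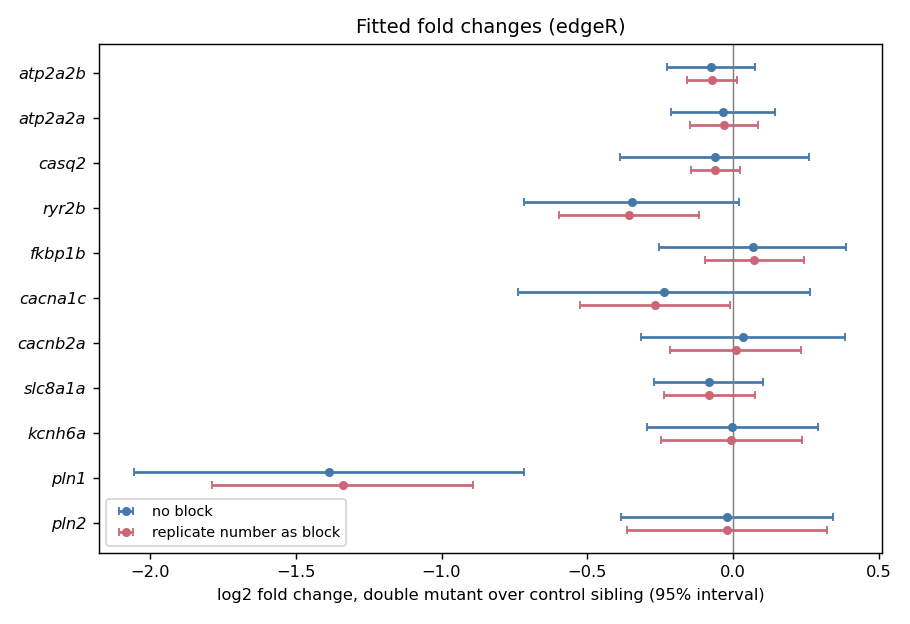
Fitted log2 fold change of each gene, double mutant over control sibling, with its 95% interval from edgeR, without a block (blue) and with the replicate number as a block (red). Without the block the intervals of all 9 members include 0; with it those of ryr2b and cacna1c do not, though neither passes adjustment over all genes, and both intervals of pln1 lie below 0.

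Levels of different genes were compared per length, as reads per kilobase of deposited gene length, scaled to 1000000 reads (RPKM) averaged over 10 libraries. Casq2 stood first at 112 RPKM, followed by atp2a2b at 33.2, fkbp1b at 11.0, atp2a2a at 6.72, slc8a1a at 2.60, cacnb2a at 2.48, kcnh6a at 0.919, cacna1c at 0.563 and ryr2b at 0.186 RPKM. Ranges over the 10 libraries of neighbours in this order were apart, except those of slc8a1a and cacnb2a. Slc8a1a was the higher of that pair in 6 of 10 libraries, and the deposited FPKM values put cacnb2a first, at 2.81 against 2.66.

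**Figure D4:**
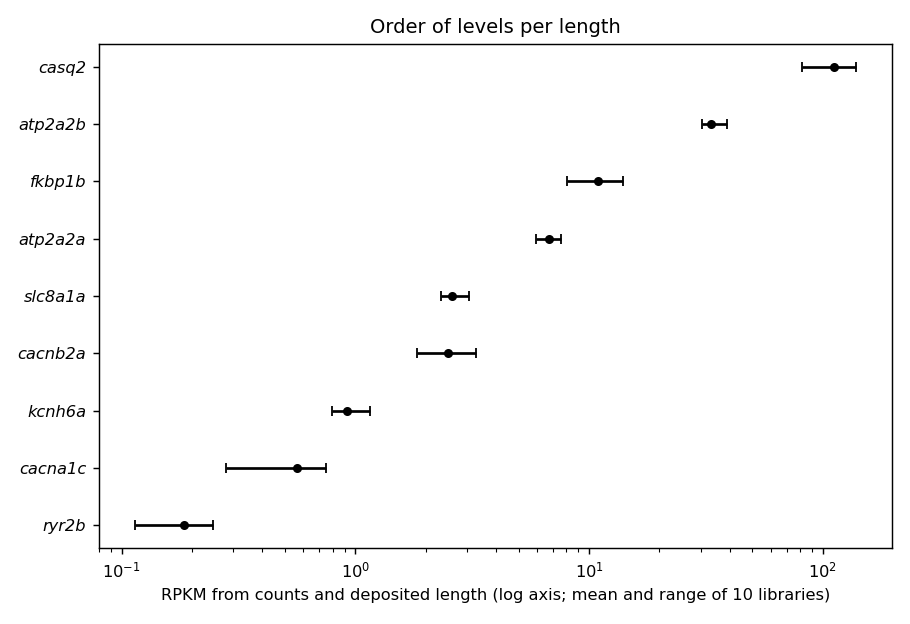
Level per length of the 9 genes, in RPKM on a log axis; points are means and bars the range over all 10 libraries. The order runs from casq2 at 112 RPKM to ryr2b at 0.186 RPKM, and slc8a1a and cacnb2a are the neighbours whose ranges overlap.

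The members were set beside close relatives known from skeletal muscle, for which no rule of choice was set. The skeletal pump gene atp2a1 was at 2109 RPKM, against 33.2 for atp2a2b. For the release channels, ryr1b was at 11.3, ryr3 at 10.6 and ryr1a at 2.93 RPKM, against 0.186 for ryr2b. The beta subunit gene cacnb1 was at 7.97 RPKM, against 2.48 for cacnb2a. Cacna1sb, a pore subunit of the skeletal calcium channel, was at 9.43 RPKM, against 0.563 for cacna1c. Calsequestrin went the other way: casq2 was above casq1a at 66.4 and casq1b at 36.1 RPKM, and also above myl7 at 34.8 RPKM. The tissue in which each gene was read cannot be told from whole embryos, and the share of the heart in these levels was not tested.

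Some members varied with the replicate number in both groups. For casq2 the means of the numbers varied with an SD of 0.280 on the log2 scale, and the mean difference between mutant and control within numbers was -0.06. For cacna1c these values were 0.398 and -0.30, for fkbp1b 0.237 and 0.08, and for ryr2b 0.256 and -0.37. Casq2, cacna1c, fkbp1b and ryr2b were higher in numbers 4 and 6 than in 2 and 3, in both groups, though ryr2b was highest in number 1. The mean of the control and the mutant of casq2 was 382 and 379 CPM in numbers 4 and 6, and 239.9 and 293 CPM in numbers 2 and 3.

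The SD of the means of the numbers was lower for kcnh6a, at 0.129, and for slc8a1a, at 0.0644. Summed levels of skeletal muscle, heart muscle and neuron marker genes moved with the number as well. The 22 skeletal muscle genes found summed to 26754 and 34012 CPM in numbers 2 and 3 and to 45087 and 52179 CPM in numbers 4 and 6. The 13 heart muscle genes found summed to 1071 and 1138 CPM and to 1488 and 1646 CPM in the same numbers, and the 14 neuron genes to 1436 and 1419 CPM and to 1960 and 1865 CPM. The 11 red blood cell genes found did not follow. They summed to 7981 and 6941 CPM in numbers 2 and 3 and to 7111 and 5800 CPM in 4 and 6. Number 1 was the lowest for them, at 4941 CPM. Most of the heart sum came from listed genes other than vmhc, myl7, cmlc1, tnnt2a, myh6 and nppa. Single heart genes did not all follow their sum. As means of control and mutant, vmhc was at 61.2 and 56.7 CPM in numbers 2 and 3 and at 49.1 and 50.4 CPM in 4 and 6. Myl7 likewise went from 30.1 and 28.3 CPM to 25.7 and 24.8 CPM. The natriuretic peptide gene nppa, also on the list, went from 6.90 and 5.16 CPM to 11.2 and 16.2 CPM. Myh6 differed little, from 11.2 and 11.5 CPM to 12.2 and 11.9 CPM. For myh6, control 6, at 14.8 CPM, lay below controls 2 and 3, at 16.0 and 15.7 CPM. The part of these tissues in the levels of the members was not tested.

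**Figure D5:**
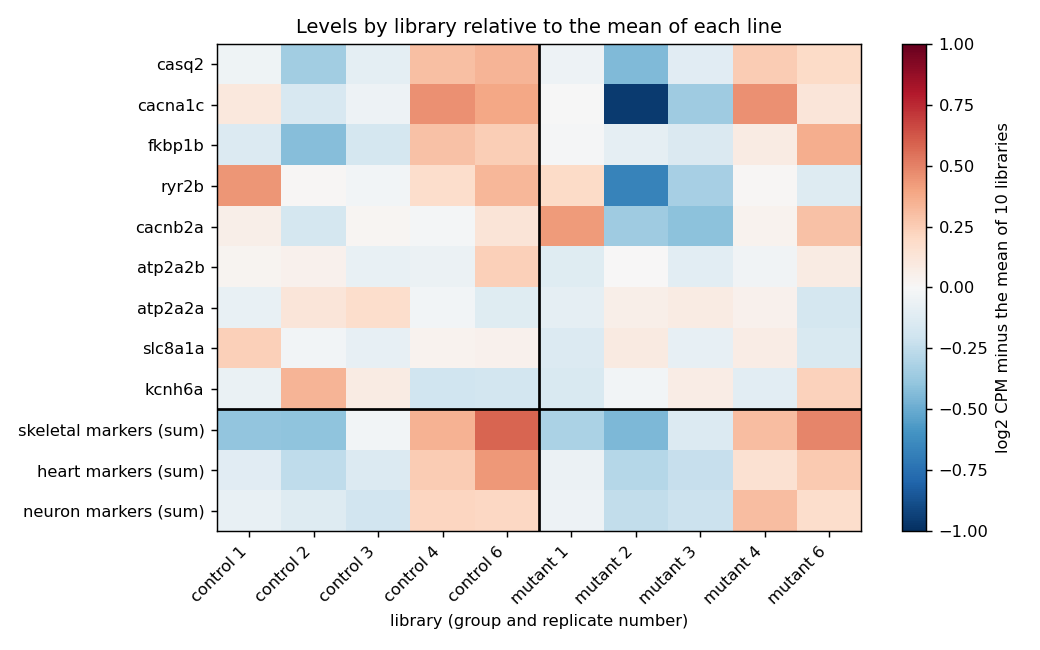
Log2 CPM of each member and of the summed marker genes in every library, minus the mean of that line over 10 libraries; red is higher and blue lower, and a vertical line parts controls from mutants. Casq2, cacna1c and fkbp1b share high values in numbers 4 and 6 of both groups with the skeletal, heart and neuron sums. Red blood cell markers are not shown. Mutant 2 is lowest for cacna1c and ryr2b. Ryr2b is also higher in numbers 4 and 6 than in 2 and 3, but highest in number 1. The heart sum comes mostly from listed genes other than vmhc and myl7.

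Between the groups the marker sums overlapped, though single heart markers changed. Of 13 heart markers tested, edgeR called 1 without the block (myh6) and 2 with it, myh6 and nppa, the gene of a natriuretic peptide. Of all tested genes 0.00481% were called without the block and 0.255% with it. Both called markers were lower in mutants, but 9 of the 13 had an unblocked log2 fold change above 0 and 4 below. The median of the 13 was 0.07, and nppb had the highest value, 0.78. Nppa was at 11.0 ± 4.40 CPM in controls against 7.52 ± 4.73 CPM in mutants, lower in 5 of 5 numbers (blocked log2 fold change -0.63, edgeR adjusted p 0.0157). It passed in only 3 of 6 alternatives to the blocked fit (edgeR or DESeq2 adjusted p 0.000492 to 0.113) and in 0 of 17 without the block. In number 6 the log2 difference of nppa was only -0.10, with mutant 6 at 15.6 CPM. The part of these changes in the levels of the members was not tested. Sums lay between 27197 and 53915 CPM in the controls for skeletal muscle and between 26311 and 50442 CPM in the mutants. In the same order, heart markers summed to 1083 to 1744 and 1059 to 1548 CPM, neuron markers to 1434 to 1898 and 1378 to 2023 CPM, and red blood cell markers to 5008 to 7951 and 4875 to 8011 CPM. The heart sum again came mostly from listed genes other than vmhc, myl7, cmlc1, tnnt2a, myh6 and nppa. None of the genes found for these lists was at 0 in all libraries. A sum of 4 heart muscle genes (myl7, tnnt2a, cmlc1 and vmhc) was taken as a scale; it leaves out myh6 and nppa, and a scale with them was not run. Relative to it, the log2 level of ryr2b was lower in the mutants by 0.43 on average and in 5 of 5 numbers, but the groups overlapped. For the other 8 members the groups overlapped too, with mean differences between -0.36 (cacna1c) and 0.01 (fkbp1b). In the mutants vmhc, myl7, cmlc1 and tnnt2a were at 108, 105, 103 and 99.6% of their control means, so this scale lowers all members alike. Without the scale the mean difference of ryr2b within numbers was -0.37. On this scale pln1 was at -5.34 ± 0.645 in controls and -6.76 ± 0.548 in mutants (± SD, n = 5 per group), with no overlap.

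The members were read against the wider set of genes for calcium handling and excitation. Of 167 entries in 10 lists, 143 genes were found in the table and 129 tested, 120 of them other than the members. Without the block edgeR called 0 of the 120, and 0 had an unadjusted p under 0.05. With the block it again called 0, while 10 (4 higher and 6 lower) had an unadjusted p under 0.05, against 10.5% of all tested genes. DESeq2 and limma also called 0. Of the 120 genes, 60 had a log2 fold change above 0 and 60 below, with a median of 0.0005.

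By role, 0 genes of each list were called in either fit. Among the 3 other pump genes atp2a1 was at 7302 ± 2939 and 7044 ± 2789 CPM and atp2a1l at 123 ± 64.9 and 127 ± 75.4 CPM (± SD, n = 5 per group). For the 20 other genes of the release unit the median log2 fold change was -0.001, with fkbp1aa, a relative of fkbp1b, at 0.003 and tmem38a, a channel of the sarcoplasmic reticulum, at -0.06. The 16 other export genes had a median of 0.004, with the mitochondrial channel gene vdac2 at 0.01 and the plasma membrane pump gene atp2b4 at -0.02. Among 21 other calcium channel genes the median was -0.01, with cacna1sb at 0.004 and cacna1sa at 0.11.

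For the 13 sodium channel genes the median log2 fold change was -0.01 (scn8aa -0.01, scn1lab -0.04) and for the 15 other potassium channel genes it was 0.10 (abcc9 -0.16, kcnj11 -0.04). The 3 pacemaker channel genes tested had a median of -0.02 (hcn2b -0.02, hcn4l 0.37), and the 3 gap junction genes one of 0.04 (cx43.4 -0.11, cx43 0.04). Calmodulin, its kinases and a further calcium signal gene, 14 genes in all, had a median of 0.02 (calm3a -0.02, calm2b 0.01). The 12 genes of the sodium-potassium pump had one of -0.02 (atp1a1a.1 0.04, atp1b1a 0.03). In these lists the named genes were the most abundant ones, and none was called.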

How the data were processed

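The authors deposited 1 table with, for each of 10 libraries, expected counts per gene (estimated counts that need not be whole) and log2 values of FPKM + 0.1, per the file headers and the values, and a gene length. RSEM 1.3.0 and STAR 2.5.3a are named per the submitters' processing notes, with the build GRCz10; the annotation release, and whether counting used the strand, were not stated there. Between 17.8 and 21.6% of counts in a library were not whole.

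Rounded counts went into edgeR 4.0.16, run in R 4.3.3 (filterByExpr, TMM, robust quasi-likelihood), double mutant against control sibling, two-sided, with Benjamini-Hochberg adjustment over 20802 genes at a threshold of 0.05. The 95% intervals come from the same fit. The procedure was tested on simulated counts. For the fit without the block these held no effect of the number, and the changes put in were larger than the members' estimates. The simulation therefore does not show how that fit does on these data. The pump gene ratio and the CPM of ryr2b were compared with exact permutation tests over all assignments of libraries to groups, without regard to the numbers. DESeq2 1.42.0 and limma 3.58.1 were alternatives. No label says that pools came from separate crosses, so p-values measure the spread between these pools. Libraries with the same number deviated together (correlations of 0.54 to 0.60, over 0.1 in 5 of 5 pairs), so the numbers were read as pairs, from the data and not from a label. Between libraries of different numbers the correlations ran from -0.47 to 0.51. Control 2 with mutant 3 and control 3 with mutant 2 gave 0.50 and 0.51, close to the same-number values. The correlations thus hardly separate the pairs of numbers 2 and 3. No 2 libraries were near duplicates (chi-square per degree of freedom of 5.81 or more over 45 pairs).

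The members and lists were chosen with earlier results of these data known. Named were all members and, in each list, the 2 most abundant other genes and any gene called in the edgeR fit with or without the block. Genes nearest in profile, marker genes, the targeted genes and the skeletal muscle relatives were named besides, the relatives without a set rule. Any remaining gene is said to be chosen after its values were seen. Genes were matched by the table's symbols, and the phospholamban genes by ID.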

Additional observations from a re-analysis of the deposited data

Results flagged for a closer look

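In 22 groups of 5 libraries (9 members and the phospholamban genes pln1 and pln2, in controls and in mutants), 0 held a library far from the other 4, where chance gives about 1.1.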

How the results depend on the processing

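No member was called under any of the 24 alternatives, and neither was any of the 129 pathway genes; with pln1 and pln2 added, 1 gene (pln1) was called by DESeq2 without and with the block, by edgeR with the replicate block, and by that fit without each pair in turn (1 each), against 0 with each single library left out. Over all tested genes edgeR called 1 gene, against 6 with DESeq2, 93 with DESeq2 and the block, 53 with edgeR and the replicate block, 2 with limma-trend on log2(FPKM + 1), 0 on log2(FPKM + 0.1), and 0 to 365 when a library or a pair was left out; the cause was not tested. The block changed no call among the members. The sign held in all 24 alternatives for atp2a2b, ryr2b, slc8a1a and cacna1c. The log2 fold change of ryr2b was between -0.46 and -0.05, the latter on log2(FPKM + 1), which shrinks changes of low genes by construction. Signs turned for genes close to 0 when libraries or pairs were left out: atp2a2a ranged from -0.069 to 0.0026, casq2 from -0.15 to 0.019, kcnh6a from -0.097 to 0.095, cacnb2a from -0.099 to 0.13, fkbp1b from -0.021 to 0.15 and pln2 from -0.17 to 0.13. Kcnh6a also turned with limma-trend (0.0090 and 0.0021 on log2 of FPKM + 0.1 and + 1), and cacnb2a with DESeq2 and the replicate block (-0.0016). The difference in the atp2a2a to atp2a2b ratio ranged from -0.043 to 0.11 without single libraries. The level per length of fkbp1b was 13.3 as deposited FPKM, above its RPKM. Pln1 ran from 0.514 to 3.14 RPKM over the 10 libraries, but from 1.12 to 3.80 as deposited FPKM, a narrower range in fold terms. The planned ratio of ryr2a to ryr2b was not run, since ryr2a had no line. Depth limits the genes of low count: cacna1c had as few as 60 counts in a library and pln1 21.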

Other observations

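A few genes of the wider set, chosen after their values were seen, stood farthest from 0 or had a small unadjusted p with the block, and none passed adjustment over all genes. Kcnh6b, the close relative of kcnh6a, had the highest log2 fold change of the set, 0.75, at a mean of only 0.308 CPM (unadjusted edgeR p 0.061). Cacnb3a, a calcium channel beta subunit gene, had the lowest, -0.53, at 0.464 CPM (unadjusted edgeR p 0.151). With the block, atp1b1b, a beta subunit of the sodium-potassium pump, had the smallest p of the 129 genes (log2 fold change 0.15, unadjusted edgeR p 0.00231, adjusted p 0.173). Next came ryr2b and then cacng6a, a calcium channel gamma subunit gene (0.19, unadjusted edgeR p 0.00773, adjusted p 0.27). Cacna1da, the other tested L-type pore gene with such a p, was at -0.25 (unadjusted edgeR p 0.02, adjusted p 0.361) beside -0.27 for cacna1c.

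Profiles across the 10 libraries were compared by the root mean square difference in centred log2 CPM among 18107 other genes with a mean of at least 1 CPM. Casq2 lay nearest to nsfa and slc18a3a (0.055 each), with a median of 0.300 over all genes compared. Cacna1c was nearest to lrch2 (0.086) and syne1b (0.088), and ryr2b to macf1b (0.078) and zeb1a (0.096). Atp2a2b was nearest to snx17 (0.039) and rnasen (0.040), atp2a2a to ankrd13a (0.045) and spg7 (0.049), and slc8a1a to znf991 (0.059) and ncdn (0.061). For kcnh6a the nearest were commd6 (0.080) and tpgs2 (0.081), for cacnb2a slc41a1 (0.088) and cldn10b (0.101), and for fkbp1b prss12 (0.077) and slc25a23a (0.083). Among the members themselves the closest were atp2a2b and slc8a1a (0.128) and then casq2 and fkbp1b (0.145), and the farthest apart were cacna1c and kcnh6a (0.434). The measure favours genes that vary little, so a small value for the pump genes says little.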
